A study of Mus musculus with 11 samples.

Results

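Binding of Elf1 was compared between regulatory T (Treg) cells and CD4 T cells that lack Foxp3, over the 10000 highest-scoring positions of each cell type's library. The 2 libraries held 429104 positions in all, 187745 for Treg and 241359 for CD4, so 20000 positions, 10000 a list, entered the comparison. Positions of each list were ranked by the authors' score and divided by what the other library held nearby. A position was called common when one of the other list's 10000 lay within 200 bp. It was called Treg-only or CD4-only when the other library had no position of any score within 1 kb. Everything else was kept as a remainder between these definitions. The Treg list held 6390 common positions (63.9%), 2557 in the remainder (25.6%) and 1053 Treg-only positions (10.5%). The CD4 list held 6304 common positions (63.0%), 3146 in the remainder (31.5%) and 550 CD4-only positions (5.50%).

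Both populations were primary mouse T cells from lymph nodes and spleen of animals about 8 weeks old, and were separated by green fluorescent protein that reports Foxp3. Treg cells here are Foxp3-positive CD4+ T cells, and CD4 cells are CD4+ Foxp3-negative T cells, and the labels name no gate on activation in either sort. The labels used here name no strain and no treatment. Chromatin immunoprecipitation and sequencing (ChIP-seq) gave 1 Elf1 and 1 Ets1 library for each cell type, 1 Cbfb library for Treg cells, and 1 list of 2886 Foxp3 intervals of 200 bp that the authors pooled from Treg replicates. With 1 library a group no difference below has a replicate check, so it may belong to the libraries and not to the cell types, and no p-value is given.

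Elf1 and Ets1 belong to the ETS family of transcription factors, whose members share a DNA-binding domain and recognise related sequences around a GGAA core, so that different members can occupy the same element. Both are expressed in lymphocytes and are known from promoters and enhancers of T cell genes. Foxp3 is the factor that defines Treg cells, and Cbfb is the partner that does not itself touch DNA in the complexes of Runx proteins, which also act in T cells. A list of positions alone holds no letters, and no genome of the build in use was at hand, so neither genes nor motifs are named here.

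The highest ranks were shared almost completely, and the 2 lists parted towards their lower ends. Of the 1000 highest scores, 996 in Treg and 999 in CD4 were common. There was 1 Treg-only position among the 1000 highest Treg scores and no CD4-only position among the 1000 highest CD4 scores, which allows up to 0.368% by the exact 95% interval. At ranks 8001 to 10000 the common share was 26.8% in Treg and 29.9% in CD4. Treg-only positions then made up 30.5% (95% interval 28.5 to 32.6) of the Treg ranks and CD4-only positions 13.7% (12.2 to 15.2) of the CD4 ranks. Intervals of shares are exact Clopper-Pearson intervals and cover counting error only. The excess of Treg-only over CD4-only positions arose in these lower ranks: with the 5000 highest scores of each list there were 47 Treg-only and 52 CD4-only positions.

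**Figure D1:**
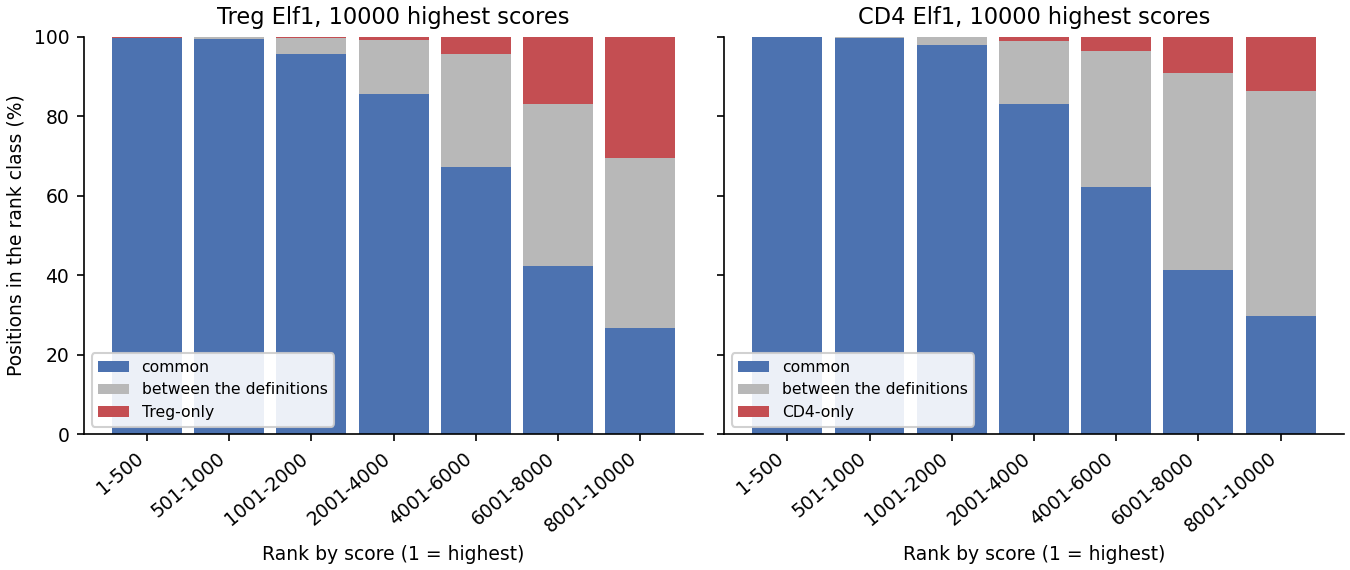
Share of positions (y axis, %) that were common, one-sided or between the definitions, by class of rank (x axis, 1 is the highest score), for the Treg list (left) and the CD4 list (right). Common positions fill the first classes, and at ranks 8001-10000 they make up 26.8% in Treg and 29.9% in CD4.

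The medians of the groups follow from that division by rank. The median rank was 3405.5 for common Treg positions, 7050 for the Treg remainder and 8367 for Treg-only positions. In CD4 the medians were 3354.5, 7135.5 and 7984.5. Median fold enrichment, the authors' maximum likelihood estimate over a control that the sources used here do not give, was 15.8 for common Treg positions and 9.30 for Treg-only ones. In CD4 it was 19.6 for common and 9.61 for CD4-only positions. One-sided positions were thus lower in their own list. Under 4-fold were 57 of 1053 Treg-only (5.41%) and 42 of 550 CD4-only positions (7.64%). For common positions this share was 1.44% in Treg and 1.19% in CD4. The median lower bound of fold enrichment was 2.71 for Treg-only and 3.34 for CD4-only positions, against 5.74 and 7.62 for common ones.

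Common positions matched closely in place and in rank. They formed 6296 pairs that were each other's nearest position, at a median distance of 24 bp, and 87 pairs fell on the same base. Of the pairs, 666 were among the 1000 highest scores in both libraries, and 4407 (70.0%) had ranks within 2-fold of each other. Over the 6296 pairs Spearman's rho was 0.681 for rank and 0.773 for fold enrichment, a description of sites that both lists had selected. The median log2 ratio of fold enrichment, Treg over CD4, was -0.32 (SD over pairs 0.77). Because depth and control are unknown, that shift describes the 2 libraries.

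The pair with the lowest sum of ranks lay on chromosome 13 at 77847957, in mm9 coordinates. It ranked 5 in Treg with 138-fold enrichment, and its CD4 counterpart, 30 bp away, ranked 2 with 172-fold. The next lay on chromosome 12 at 81745167, where Elf1 ranked 3 in Treg (102-fold) and 6 in CD4 (119-fold, 18 bp away). The third, on chromosome 6 at 136756789, had ranks of 11 and 4, with 80.0-fold in Treg and 159-fold in CD4. The other 2 of the 5 first pairs lay on chromosome 13 at 18809125 and on chromosome 7 at 24866942, with CD4 ranks of 14 and 16. CD4 Ets1 was present within 41 bp of all 5, at ranks from 635 to 2356. Treg Ets1 was within 200 bp of only 2 of them, at 153 and 63 bp, and the nearest Foxp3 interval to any of them was 122573 bp away.

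A few common pairs differed widely in rank. In 155 pairs the Treg position ranked over 5000 places higher and in 154 the CD4 position did. On chromosome 2 at 60716197 Elf1 ranked 724 in Treg with 57.9-fold enrichment and 9871 in CD4 with 13.8-fold, 21 bp away. On chromosome 7 at 113380408, inside a Foxp3 interval, the ranks were 695 and 9602. In the other direction, Elf1 on chromosome 4 at 57826592 ranked 9519 in Treg (10.1-fold) and 674 in CD4 (30.0-fold). One of the 10000 highest CD4 Ets1 positions was present at 57.1% (48.9 to 65.1) of the pairs that ranked higher in CD4 and at 34.8% (27.4 to 42.9) of those that ranked higher in Treg. For Treg Ets1 these shares were 35.7% (28.2 to 43.8) and 29.0% (22.0 to 36.9), and the intervals overlapped. Over all 6296 pairs the shares were 57.3% for CD4 Ets1 and 36.8% for Treg Ets1. By their definition, the pairs that ranked higher in Treg had CD4 ranks over 5000. Those that ranked higher in CD4 had CD4 ranks under 5000. Common CD4 positions had one of the 10000 highest CD4 Ets1 positions at 58.1% for CD4 ranks 2001 to 4000. For ranks 8001 to 10000 the share was 38.9%. How far rank alone sets the contrast between the pairs was not tested.

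The remainder consisted mostly of positions whose counterpart had a lower score. In Treg, 1905 of its 2557 positions (74.5%) had a CD4 Elf1 position within 200 bp below the 10000 highest, at a median CD4 rank of 15679. In CD4, 2737 of 3146 (87.0%) had such a Treg position, at a median Treg rank of 27475. The false discovery rate (FDR) of these counterparts was at most 0.01 for 85.5% of those in CD4 and 95.1% of those in Treg. The files differ in this respect, since 53580 of all 241359 CD4 Elf1 positions and 157731 of all 187745 Treg ones met that limit, so the 2 shares are not comparable. The other 652 and 409 positions had their nearest counterpart at 201 to 1000 bp. Counting every score, 83.0% of the Treg list had a CD4 Elf1 position within 200 bp and 90.4% of the CD4 list a Treg one. Few positions lay just inside or just outside the limits of the definitions. The nearest position of the other 10000 was at 151 to 200 bp for 121 Treg and 64 CD4 positions, just inside the limit, and at 201 to 250 bp for 104 and 45, just outside. At the outer limit, 76 Treg and 45 CD4 positions had the nearest one of any score at 751 to 1000 bp, and 76 and 43 at 1001 to 1250 bp. Larger changes of that limit moved the one-sided counts. With 500 bp in place of 1 kb there were 1234 Treg-only and 670 CD4-only positions, and with 2 kb 817 and 415.

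Common Elf1 usually had Ets1 beside it, and Treg-only Elf1 rarely did. An Ets1 position of any score lay within 200 bp of 59.0% of the 10000 Treg Elf1 positions in Treg cells and of 74.5% in CD4 cells. Among common Treg positions the shares were 70.3% (69.2 to 71.4) and 91.2% (90.5 to 91.9). Among Treg-only positions they were 13.0% (11.04 to 15.2) and 10.1% (8.32 to 12.0). Over all deposited Treg Elf1 positions, whatever their score, they were 12.1% and 14.6%. For Treg Ets1 the share of Treg-only positions was thus near that of the whole Treg file, and for CD4 Ets1 it was below it. Treg-only positions came from the 10000 highest scores, but were also selected for having no CD4 Elf1 position within 1 kb. The whole file was not selected in that way, and how far this selection moves the shares was not tested.

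CD4-only positions kept most of their Ets1 neighbours in CD4 cells. Of all 10000 CD4 Elf1 positions, 88.3% had a CD4 Ets1 position and 65.2% a Treg Ets1 position of any score. Common CD4 positions had 91.8% (91.1 to 92.5) and 70.9% (69.7 to 72). CD4-only positions had 74.9% (71.1 to 78.5) and 37.1% (33.0 to 41.3). Across all deposited CD4 Elf1 positions the shares were 15.3% and 11.8%. A CD4 Ets1 position within 10 bp was found at 13.6% (10.9 to 16.8) of CD4-only and 13.5% (12.7 to 14.4) of common CD4 positions, while a Treg Ets1 position this close was found at 1.80% (1.09 to 2.80) of Treg-only and 5.46% (4.92 to 6.05) of common Treg positions.

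**Figure D2:**
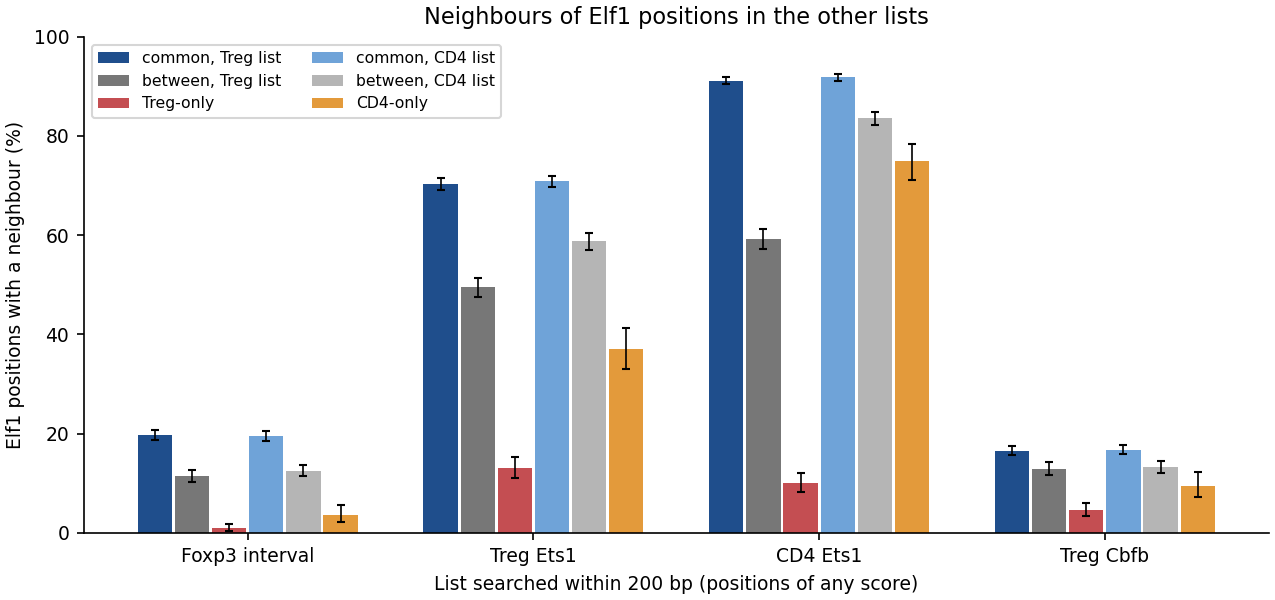
Share of Elf1 positions (y axis, %) with a Foxp3 interval, or a Treg Ets1, CD4 Ets1 or Treg Cbfb position of any score, within 200 bp (x axis), for the common, between and one-sided groups of both lists. Bars start at 0 and lines are exact 95% intervals for counting error. The Treg-only bars are the lowest at each list, and the CD4-only bar stands at 74.9% for CD4 Ets1.

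The same order held when only the 10000 highest Ets1 scores of each cell type counted. Over the Treg list 28.5% had such a Treg Ets1 position and 41.6% a CD4 Ets1 position; over the CD4 list the shares were 31.8% and 50.2%. Common Treg positions had Treg Ets1 at 36.8% (35.7 to 38.0), and Treg-only positions at 1.61% (17 of 1053, 0.943 to 2.57). Common CD4 positions had CD4 Ets1 at 57.8% (56.6 to 59.0), and CD4-only positions at 26.7% (147 of 550, 23.1 to 30.6). The CD4-only share rested on the ranking of Elf1 by score. Among the 3617 CD4-only positions ranked by fold enrichment it was 2.24%, and the Treg-only share was then 0.290%. The Ets1 lists were not ranked anew for this and stayed the 10000 highest by score. The Ets1 positions beside one-sided Elf1 were also lower in rank. Those of Treg beside Treg-only Elf1 had a median rank of 60665 and 3.33-fold enrichment, against 9283 and 4.90-fold beside common Elf1. In CD4 the values were 15226.5 and 4.61-fold beside CD4-only Elf1, and 7030 and 7.44-fold beside common Elf1. Among common positions, the share with a high-scoring CD4 Ets1 position fell along the CD4 Elf1 ranks from 88.0% at ranks 1 to 500 to 38.9% at ranks 8001 to 10000, and that with Treg Ets1 along the Treg ranks from 42.5% to 30.8%.

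Ets1 present in the same cell type and missing from the other, by the same 1 kb definition, was most frequent beside CD4-only Elf1. There were 171 such CD4-only positions (31.1%), against 15.4% of the CD4 remainder and 11.1% of common CD4 positions. Among Treg-only positions there were 76 (7.22%, 5.73 to 8.95), against 3.48% of the Treg remainder and 0.673% (0.487 to 0.905) of common Treg positions. These shares are of all positions of a group. Same-cell Ets1 of any score was present at 412 CD4-only and 137 Treg-only positions. Counted among these alone, Ets1 was missing from the other cell type more often beside Treg-only than beside CD4-only Elf1. No Ets1 of either cell type lay within 200 bp of 79.7% of Treg-only positions, and 50.4% had none even within 1 kb. For the Treg remainder the shares were 28.7% and 10.7%, and for common Treg positions 5.05% and 1.47%.

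Cbfb followed the same order over a smaller range. A Treg Cbfb position of any score lay within 200 bp of 14.4% of the Treg list and 15.2% of the CD4 list. The shares were 16.6% for common Treg positions, 4.65% (3.46 to 6.11) for Treg-only positions and 9.45% (7.14 to 12.2) for CD4-only positions, beside 5.09% over all deposited Treg Elf1 positions. For 803 of the 1053 Treg-only positions (76.3%) none of the Ets1, Cbfb or Foxp3 lists had an entry within 200 bp. In the rest of the Treg list this was so for 671 of 2557 positions of the remainder (26.2%) and 286 of 6390 common positions (4.48%).

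High-scoring Elf1 at Foxp3 intervals was mostly common to both cell types and seldom one-sided. Over the Treg list 15.6% of positions lay within 200 bp of a Foxp3 interval, and over the CD4 list 16.4%. The share was 19.7% (1258 of 6390, 18.7 to 20.7) for common Treg positions and 19.5% (1227 of 6304, 18.5 to 20.5) for common CD4 positions, which are largely the same sites. It was 11.5% and 12.5% in the 2 remainders. Of the Treg-only positions 10 of 1053 lay there (0.9497%, 0.456 to 1.74), and of the CD4-only positions 20 of 550 (3.64%, 2.24 to 5.56). For comparison, 1.57% of all deposited Treg and 1.17% of all deposited CD4 Elf1 positions did. When fold enrichment set the ranks instead, one-sided positions numbered 4830 in Treg and 3617 in CD4, and the Foxp3 shares were 0.207% and 0.249%. With the 5000 highest scores, the order of the 2 one-sided groups was turned, at 6.38% of 47 Treg-only and 3.85% of 52 CD4-only positions.

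Seen from the Foxp3 side, the make-up of the lists differed between positions at Foxp3 intervals and away from them. Of the 1561 Treg Elf1 positions at an interval, 80.6% (78.5 to 82.5) were common, 18.8% in the remainder and 0.641% (0.308 to 1.17) Treg-only. Of the 8439 away from any interval the shares were 60.8%, 26.8% and 12.4% (11.7 to 13.1). In CD4 the positions at intervals were 74.8% common and 1.22% CD4-only, and those away from them 60.7% common and 6.34% CD4-only. These differences were larger in the lower ranks. At ranks 2001 to 4000 the common share was 85.6% both at intervals and away in Treg, and 87.9% and 81.8% in CD4. At ranks 8001 to 10000 it was 56.4% at intervals and 24.1% away in Treg, and 44.2% and 27.5% in CD4. Of the 2886 Foxp3 intervals, 1976 had an Elf1 position of either list within 200 bp. A common position of the Treg list was present at 1285 intervals (44.5%), a Treg-only position at 13 (0.450%) and a CD4-only position at 20 (0.693%). No interval had both kinds of one-sided position.

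One-sided positions had lower scores than common ones, so common and one-sided positions were also compared at similar rank, in the lowest classes, where most one-sided positions lay. Common positions had the higher shares there. At ranks 6001 to 8000, 18.1% (15.6 to 20.9) of 845 common Treg positions and 1.18% (0.323 to 3.002) of 338 Treg-only positions lay at a Foxp3 interval. At ranks 8001 to 10000 the shares were 17.2% (14.1 to 20.7) of 535 and 0.328% (0.0397 to 1.18) of 610. In CD4, common and CD4-only positions had 17.9% and 2.17% at ranks 6001 to 8000, and 21.1% and 4.76% at ranks 8001 to 10000. Treg Ets1 of any score was present at 64.5% (60.3 to 68.5) of common Treg and 9.67% (7.44 to 12.3) of Treg-only positions at ranks 8001 to 10000. In CD4 the gap was smaller, with CD4 Ets1 at 83.2% (80.0 to 86.2) of common and 69.6% (63.8 to 75) of CD4-only positions of those ranks. Higher classes held few one-sided positions: at ranks 2001 to 4000, 2 of 15 Treg-only and none of 19 CD4-only positions lay at a Foxp3 interval, the reverse of the order of the whole one-sided groups. The Treg remainder did not lie below common positions in every class. At ranks 1001 to 2000 its Foxp3 share was 34.1% (14 of 41, 20.1 to 50.6) against 24.5% (21.8 to 27.3) for common Treg positions, with overlapping intervals. Being one-sided requires a stretch of 1 kb with no entry of any score in the other Elf1 file, and how far that requirement by itself moves these shares was not tested. The 2 libraries also differed below the ends of the lists, whatever the group. Among the next 10000 scores of each library, same-cell Ets1 of any score lay at 21.5% of Treg and 62.2% of CD4 positions. Foxp3 shares there were 3.91% and 6.73%. How far this difference sets the contrast between Treg-only and CD4-only positions was not tested.

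**Figure D3:**
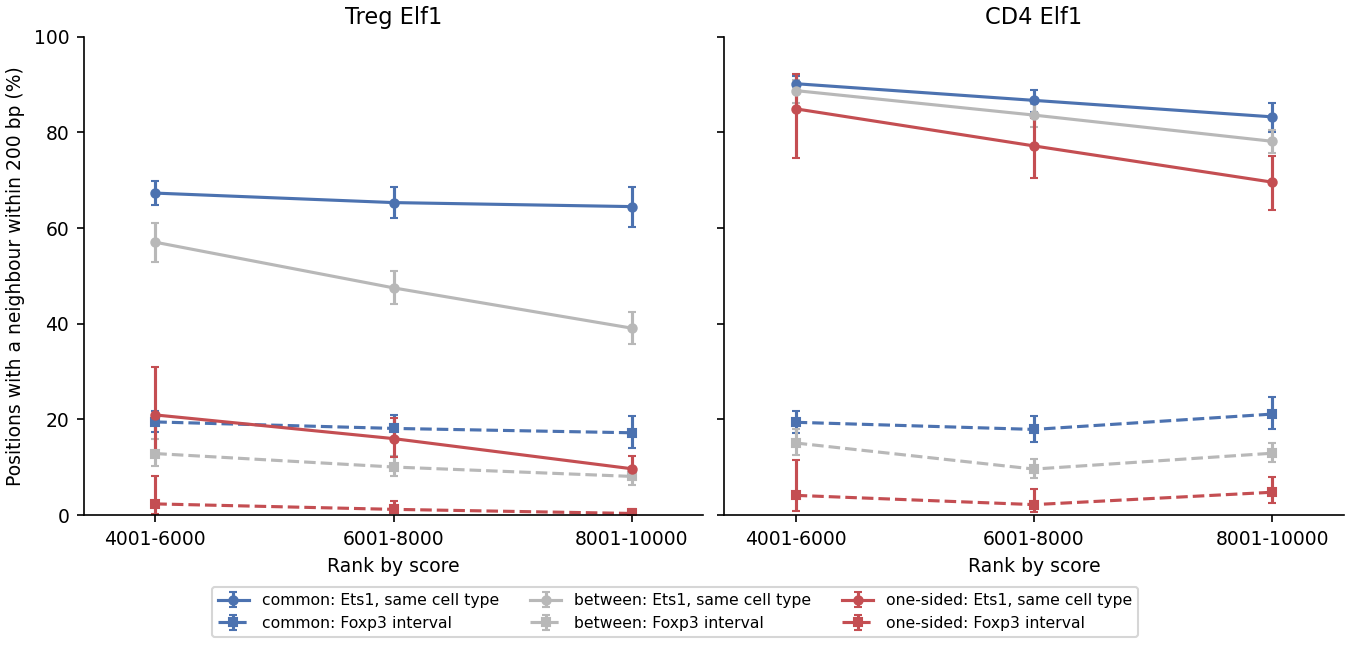
Share of positions (y axis, %) with an Ets1 position of the same cell type (circles, solid) or a Foxp3 interval (squares, dashed) within 200 bp, by class of rank (x axis), for common, between and one-sided positions of the Treg list (left) and the CD4 list (right), with exact 95% intervals. In Treg the one-sided line for Ets1 stays far below the common line, at 9.67% against 64.5% in the last class, while in CD4 it is at 69.6% against 83.2%.

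Elf1 at Foxp3 intervals had high-scoring Ets1 more often than Elf1 away from them in the common groups, the remainders and the CD4-only group. Among Treg-only positions, only 10 of which lay at Foxp3, this held for Treg Ets1 and not for CD4 Ets1. Of the 1258 common Treg positions at a Foxp3 interval, 66.8% (64.1 to 69.4) had one of the 10000 highest Treg Ets1 positions and 81.1% (78.8 to 83.2) one of the CD4 ones. Of the 5132 common positions away from Foxp3 the shares were 29.5% and 51.6%. In the Treg remainder Treg Ets1 was present at 48.1% (42.3 to 54.0) of positions at Foxp3 and 14.8% (13.3 to 16.3) of those away. In the CD4 remainder CD4 Ets1 was present at 75.1% (70.6 to 79.3) and 34.0% (32.2 to 35.8). Among CD4-only positions CD4 Ets1 was present at 65% (40.8 to 84.6) at Foxp3 and 25.3% (21.6 to 29.2) away. Among the 20 CD4-only positions at Foxp3 intervals 13 had a high-scoring CD4 Ets1 position and 7 a Treg one. Among the 10 Treg-only positions there 2 had a Treg one (20%, 2.52 to 55.6) and none a CD4 one. Of the 1043 Treg-only positions away from Foxp3, 15 had a Treg one (1.44%, 0.807 to 2.36) and 3 a CD4 one (0.288%).

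The highest-scoring Treg-only positions were varied in their surroundings. The first lay on chromosome 1 at 12634873, with rank 188 and 61.2-fold enrichment (lower bound 22.5). The nearest CD4 Elf1 position was 3790 bp away, at rank 172496. A Treg Cbfb position of rank 28 fell on the same base and a CD4 Ets1 position of rank 42913 was 27 bp away. The second, on chromosome 19 at 29345949, ranked 1153 with 22.7-fold enrichment and had a Cbfb position 162 bp away. The third, on chromosome 14 at 104736205, reached 164-fold at rank 1245, with a Cbfb position of rank 1666 at 4 bp and no Ets1 position within 5 kb. The fourth, on chromosome 10 at 121200306, ranked 1947 (9.75-fold) and had Ets1 in both cell types at 2 bp, at rank 288 in Treg and 8066 in CD4. The fifth, on chromosome 6 at 15730356, ranked 2293 (6.48-fold) and had no neighbour of any list within 200 bp. So 3 of these 5 had a Cbfb position within 200 bp, against 4.65% of the whole Treg-only group, and none lay at a Foxp3 interval. The next ranks did not share this: 0 of 15 Treg-only positions at ranks 2001 to 4000, the fifth among them, had a Cbfb position within 200 bp. At ranks 4001 to 6000, 6 of 86 did (6.98%).

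The 5 highest-scoring Treg-only positions at Foxp3 intervals all had an Ets1 position of at least 1 cell type within 70 bp. Among them, Elf1 on chromosome 10 at 39199392, inside an interval, ranked 5191 with 10.1-fold enrichment, and a Treg Ets1 position lay 45 bp and a CD4 Ets1 position 44 bp away. The nearest CD4 Elf1 position was 3203 bp off. On chromosome 8 at 84160435 Elf1 ranked 6059 (12.9-fold) and had Treg Ets1 of rank 12742 at 16 bp. Among Treg-only positions with Ets1 in Treg and none in CD4 within 1 kb, the highest score lay on chromosome 14 at 73735464. It had rank 2984, 10.8-fold enrichment and Treg Ets1 of rank 28347 at 70 bp. Its nearest CD4 Elf1 position, 1610 bp away, ranked 13727 with 24.8-fold enrichment. Of the 5 highest-scoring Treg-only positions with Treg Ets1 and no CD4 Ets1 within 1 kb, 1 had an Ets1 position among the 10000 highest Treg scores. The positions on chromosome 9 at 7240223 and chromosome 15 at 50499454 had 5.46-fold and 18.8-fold enrichment, with Treg Ets1 at 6 bp and 93 bp but at ranks of 100941 and 45376.

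The 5 highest-scoring CD4-only positions each had CD4 Ets1 within 107 bp, at CD4 Ets1 ranks from 3358 to 49317. The first lay on chromosome 11 at 106889293, with rank 1466 and 19.7-fold enrichment (lower bound 8.67). CD4 Ets1 of rank 34563 was 1 bp away, and the nearest Treg Elf1 position was at 1330 bp with rank 148688. The second lay on chromosome 10 at 126817631, with rank 2179 and 30.4-fold enrichment, and was 15908 bp from the nearest Treg Elf1 position. The third, on chromosome 2 at 117833909, ranked 2300 (14.9-fold), with CD4 Ets1 of rank 8023 at 83 bp and the nearest Treg Ets1 at 6876 bp. The fourth, on chromosome 18, ranked 2654 (15.9-fold) and had CD4 Ets1 at 75 bp, but at rank 49317 with 1.56-fold enrichment. The fifth, on chromosome 2 at 74911522, reached 42.5-fold at rank 2787, with CD4 Ets1 of rank 3358 at 81 bp and no Treg Ets1 within 5 kb. All but the second had no Treg Ets1 position within 1 kb, and none of the 5 lay at a Foxp3 interval. A further position with CD4 Ets1 alone, on chromosome 17 at 12972490, ranked 3578 (18.9-fold), with CD4 Ets1 of rank 2421 at 19 bp and Treg Cbfb at 41 bp. The 5 highest-scoring CD4-only positions at Foxp3 intervals all had CD4 Ets1 within 84 bp, at ranks from 740 to 16398. Among them, Elf1 on chromosome 11 at 105918438 ranked 6012 with 6.52-fold enrichment, and on chromosome 4 at 106500520 it ranked 6038 with 10.9-fold, where a CD4 Ets1 position of rank 2732 lay 3 bp away.

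The groups were spread over the chromosomes in different ways. Over the numbered chromosomes common positions had a density of 26.1 per 10 Mb in the Treg list, Treg-only positions 4.12 and CD4-only positions 2.23. Common positions were densest on chromosome 11, at 46.2 per 10 Mb (exact Poisson 95% interval 42.4 to 50.2), and sparsest among numbered chromosomes on 14, at 16.9. Treg-only positions ran from 2.34 per 10 Mb on chromosome 7 to 5.41 on chromosome 1, and CD4-only positions from 0.702 on chromosome 3 to 3.56 on chromosome 9. Across the 19 numbered chromosomes, the density of CD4-only positions rose with that of common ones (Spearman's rho 0.70), and that of Treg-only positions ran the other way (rho -0.51). These are descriptions over 19 points that share the libraries and differ in length, gene content and base composition.

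On chromosome X, Treg-only positions were nearly as dense as elsewhere, unlike the other groups. Common Treg positions had 4.71 per 10 Mb there (3.71 to 5.88), or 0.180 of their density on the numbered chromosomes. CD4-only positions had 0.672 per 10 Mb, or 0.301 of theirs. Treg-only positions had 3.55 per 10 Mb (2.69 to 4.58), or 0.860 of theirs. Of the 219 Treg positions on X, 58 were Treg-only (26.5%, 20.8 to 32.8), while on the numbered chromosomes the share ran from 5.27% on chromosome 7 to 16.8% on chromosome 14. In CD4, 11 of 156 positions on X were CD4-only (7.05%, 3.57 to 12.3), within the range of the numbered chromosomes. The share of each group that lay on X was 5.51% for Treg-only, 2% for CD4-only and 1.21% for common Treg positions. Ranked by fold enrichment these shares were 13.9%, 11.5% and 2.86%, and among the 47 and 52 one-sided positions of the 5000 highest scores they were 2.13% for Treg-only and 5.77% for CD4-only, so the contrast between the one-sided groups depended on the ranking and the list length. The sex of the animals is not given in the labels used here, and none of the 5 position lists had an entry on Y.

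**Figure D4:**
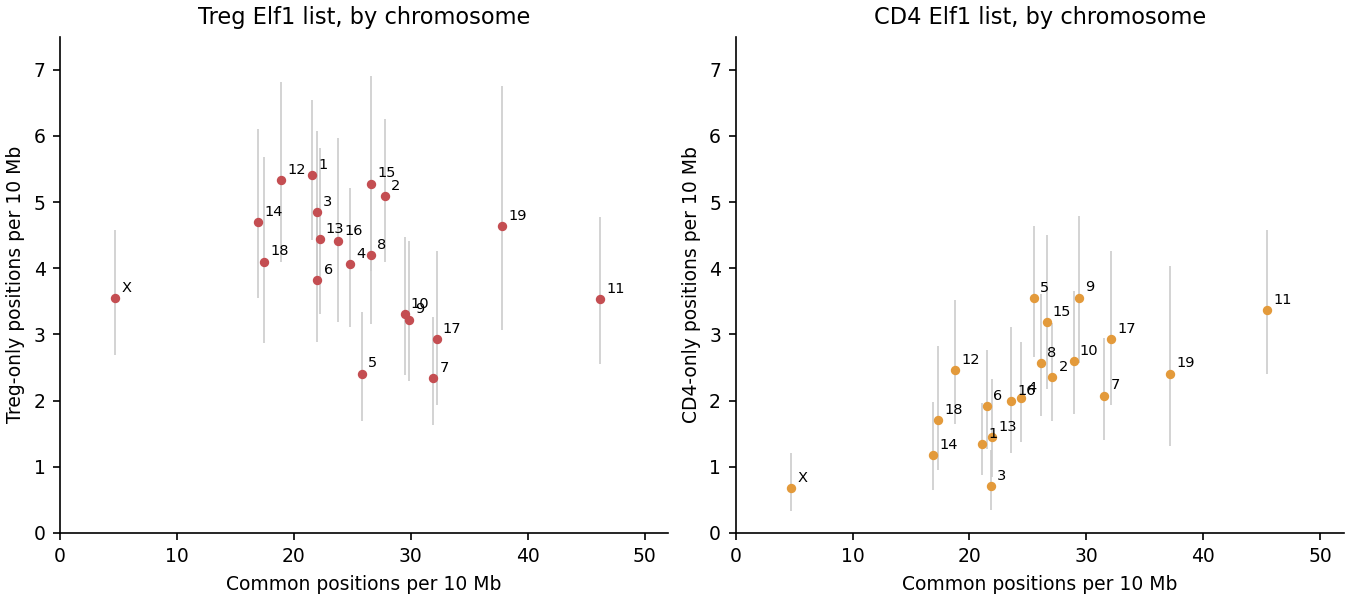
One-sided positions per 10 Mb (y axis) against common positions per 10 Mb (x axis) for each chromosome, named beside its point, in the Treg list (left) and the CD4 list (right). Grey lines are exact Poisson 95% intervals. On chromosome X the Treg-only value of 3.55 lies within the range of the other chromosomes, although its common value of 4.71 is the lowest.

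Spacing repeated the contrast between the 2 one-sided groups. How far the difference between the 2 libraries sets that contrast was not tested here either. The nearest other position of the same list lay at a median of 20218 bp from common Treg positions and 20056 bp from common CD4 positions. The median was 28158.5 bp for CD4-only positions and 116504 bp for Treg-only positions. To the nearest common position of the same list it was 31659 bp for common Treg positions, 53713.5 bp for CD4-only positions and 328510 bp for Treg-only positions. A common position lay within 10 kb of 28.0% (26.9 to 29.1) of common Treg, 25.9% of common CD4, 12.9% (10.2 to 16.0) of CD4-only and 6.74% (5.30 to 8.43) of Treg-only positions. Within 100 kb the shares were 74.9%, 74.2%, 68.2% and 32.9%. At 100 kb, CD4-only positions were thus close to the common groups, and Treg-only positions were far below them. Within 1 kb there was a common position for none of the Treg-only and 1 of the CD4-only positions, a distance the rule itself limits. There was one for 688 common Treg positions (10.8%) and 518 common CD4 positions (8.22%), and these also count within 10 kb. Part of the gap between common and one-sided positions at 10 kb is thus set by the definitions. With ranks by fold enrichment a common position was within 10 kb of 3.23% of CD4-only and 1.74% of Treg-only positions, and with a gap of 2 kb in place of 1 kb of 8.92% and 4.16%. With the 20000 highest scores the shares were 24.0% and 7.12%, so the order was kept while the CD4-only share moved in both directions. With the 5000 highest they were 9.62% of 52 and 0% of 47.

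The same order of spacing was seen at similar ranks. At ranks 8001 to 10000 the median distance to the nearest common position was 30462 bp for common Treg, 378258 bp for Treg-only, 29680 bp for common CD4 and 56834 bp for CD4-only positions. The remainders, with 35591 bp in Treg and 33684 bp in CD4, resembled the common groups.

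**Figure D5:**
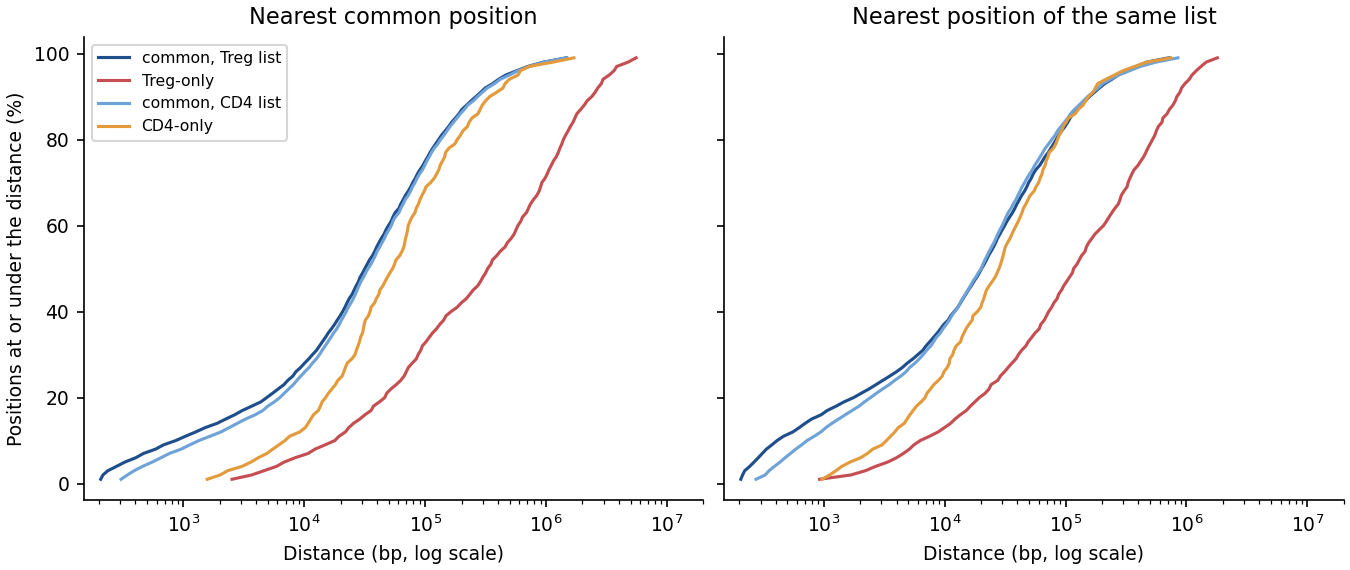
Share of positions (y axis, %) at or under a distance (x axis, bp, log scale) from the nearest common position (left) and from the nearest position of the same list (right), for common and one-sided positions. The curve of Treg-only positions lies to the right of the other 3, with a median of 328510 bp to the nearest common position against 53713.5 bp for CD4-only positions.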

How the data were processed

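The submitters' processing notes name Bowtie 0.12.7 and the build mm9. Except for Foxp3, each deposited list gives 1 base per binding position. Its columns, per the file headers, are the score, the E-value, the FDR, which is a q-value, and fold enrichment with a lower bound. The caller, the control and the number of reads are not given in the sources used here, so depth is unknown and scores were used as ranks within a list. Deposited positions reached an FDR of 0.0989 in Treg Elf1 and 0.198 in CD4 Elf1, so the files stop at different limits. The Foxp3 list gives a start and an end without a score. In Treg Elf1, 186 positions shared the score at rank 10000, of which 43 were kept, by fold enrichment and then position.

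From these lists nearest distances, counts, shares with exact Clopper-Pearson 95% intervals and densities with exact Poisson 95% intervals were computed. Densities are per length between the lowest and highest coordinate on a chromosome in any list. The classification was tested on simulated data and recovered 7209 of 7209 planted positions. These were Treg Elf1 positions over 5 kb from the next, so crowded positions were not covered. No simulated position had a lower-scoring counterpart within 200 bp, the commonest case in the real remainders. The members, definitions and lists were chosen with earlier results of these data known. Named positions were, in each group, the 5 highest scores (for common pairs the lowest sums of ranks), the 5 highest one-sided scores at Foxp3 intervals, the 5 with same-cell Ets1 and no other-cell Ets1 within 1 kb, and the 3 pairs with the largest rank difference each way. The only gene table at hand is on another build, so gene names, gene lists and motifs were not used here, and the sort was not checked against marker genes. The input and CD4 Cbfb libraries were not analysed here. Alternatives were 5000 and 20000 positions, ranking by fold enrichment, distances of 100 and 500 bp, other limits for one-sided positions and FDR limits. The tools were scipy 1.17.1, pandas 2.3.3, numpy 2.4.6 and, for plots, matplotlib 3.10.9, under Python 3.11.15.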

Additional observations from a re-analysis of the deposited data

How the results depend on the processing

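The results were recomputed under 14 other settings, 2 of them chosen after seeing the data. Of 209 values, 151 stayed within 1.5 times a main count or within the interval of a main share. Some of these values could not move, so the tally overstates how stable the results are. Common counts and shares cannot change with the gap or the other-file limits that define one-sided positions. One-sided counts and their chromosome X shares cannot change with the distance that defines common positions. Common positions exceeded both one-sided groups in the Foxp3 share and in the same-cell Ets1 share under every setting run, and CD4-only exceeded Treg-only positions in the Ets1 share. The excess of Treg-only over CD4-only counts, and the higher Foxp3 share of CD4-only positions, held under all settings run but the 5000 highest scores.

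With the 5000 highest scores there were 3532 common Treg, 3506 common CD4, 47 Treg-only and 52 CD4-only positions. Treg Ets1 shares were then 40.7% (common Treg) and 6.38% (Treg-only), CD4 Ets1 shares 67.4% (common CD4) and 38.5% (CD4-only), and the Foxp3 share of Treg-only positions was 6.38%. With the 20000 highest the counts were 9655, 9516, 6121 and 3637, the Treg Ets1 shares 32.4% and 0.523%, the CD4 Ets1 shares 49.2% and 13.4%, and the Foxp3 shares 18.0% (common Treg), 17.7% (common CD4) and 0.441% (Treg-only). Ranked by fold enrichment the counts were 2589, 2558, 4830 and 3617. Treg Ets1 was then at 0.290% of Treg-only positions, CD4 Ets1 at 60.6% of common CD4 and 2.24% of CD4-only positions, and Foxp3 shares were 17.8%, 17.6%, 0.207% and, for CD4-only, 0.249%.

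At 100 bp the shares of common Treg and common CD4 positions were 18.3% and 18.4% for Foxp3, and 25.5% and 49.9% for same-cell Ets1. At 500 bp they were 21.2% and 20.8%, and 45.8% and 62.6%. Counting every Ets1 position with an FDR of at most 0.01 gave 58.0% of common Treg, 6.65% of Treg-only, 82.4% of common CD4 and 55.1% of CD4-only positions. With only the other file's 100000 highest scores used to define one-sided positions, CD4-only positions numbered 903. The cause of these shifts was not tested. No paired analysis was possible because each group had 1 library, and leaving out a replicate was not possible either. Shares on chromosome X have no value with numbered chromosomes only. Depth is unknown, which limits every share that rests on a position being missing from a file.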

Other observations

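The number of other lists found at an Elf1 position, out of the Foxp3, Treg Ets1, CD4 Ets1 and Treg Cbfb lists, gave a profile for each group. All 4 were present at 340 of the 6390 common Treg positions (5.32%), at 2 of the 1053 Treg-only positions (0.190%) and at 3 of the 550 CD4-only positions (0.545%). Common Treg positions had 2 of the lists in 45.7% of cases. CD4-only positions had 1 list in 43.1% and 2 in 29.8%, and Treg-only positions had none in 76.3%. The CD4 remainder had none in 10.3% of cases and the Treg remainder in 26.2%.

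A small number of one-sided positions lay together. With neighbours at most 10 kb apart, 4 runs held 3 one-sided positions of a kind each, and none held more. The Treg-only runs lay on chromosome 1 from 60944046 to 60959741, with up to 9.44-fold enrichment, and on chromosome 5 from 33102535 to 33110852, with up to 15.5-fold. The CD4-only runs lay on chromosome 2 from 74907556 to 74911522, where all 3 positions had CD4 Ets1 and none had Treg Ets1 within 200 bp and enrichment reached 42.5-fold, and on chromosome 9 from 62103966 to 62118785, with up to 58.0-fold. The limit of 10 kb was chosen with results of these data known, and none of the 4 runs touched a Foxp3 interval.

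Some common Elf1 stood without Ets1. Of the 6390 common Treg positions, 323 (5.05%) had no Ets1 position of either cell type within 200 bp and 94 (1.47%) none within 1 kb. Another 1573 (24.6%) had Ets1 in CD4 alone and 241 (3.77%) in Treg alone. The 2 Ets1 files held 226148 positions for Treg and 242086 for CD4, and the depth behind them is unknown.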
